A study of Mus musculus with 6 samples.

Results

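The levels of 10 calcium storage and transport genes were followed in the mouse prostate cancer line RM-1 with and without forced expression of Bhlhe22. Bhlhe22 is a basic helix-loop-helix (bHLH) protein that controls transcription in developing neurons. The 10 genes encode the 3 SERCA pumps (Atp2a1, Atp2a2, Atp2a3), 2 plasma membrane calcium pumps (Atp2b1, Atp2b4), the 3 IP3 receptors (Itpr1, Itpr2, Itpr3) and the store-operated entry pair Stim1 and Orai1. All 10 were found by symbol among 55487 genes of the deposited table. The set was chosen by the level of Atp2a3, the SERCA3 gene, which was much higher in Bhlhe22 cells in this same comparison. Its values, and the comparison of the other members, are therefore given as a description without p-values. Each group had 3 libraries of cultured cells. Bhlhe22 cells carried a Bhlhe22-overexpression lentivirus and vector cells a blank lentiviral vector. Both are the same parental line with no further genotype or drug named, and the labels do not say whether a group was 1 clone or a pool of infected cells, or whether replicates were separate cultures. The p-values given for other genes therefore measure a spread between libraries that may be technical.

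Cells keep calcium low in the cytosol and high in the endoplasmic reticulum (ER). SERCA pumps use ATP to fill the ER, plasma membrane pumps expel calcium from the cell, and IP3 receptors are channels that let calcium out of the ER when receptor signalling makes inositol trisphosphate (IP3). When the store runs low, STIM1 in the ER membrane senses it and opens ORAI1 at the cell surface. SERCA2 is the housekeeping pump of most tissues, SERCA1 belongs to fast skeletal muscle, and SERCA3 has a lower calcium affinity and is known from blood, endothelial and some epithelial cells.

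Libraries held 15464709 to 25129552 counts. Bhlhe22 itself had 0 counts in the 3 vector libraries and 572, 764 and 717 CPM (counts scaled to the library total, with TMM factors) in Bhlhe22 replicates 1, 2 and 3. Among 8 epithelial markers, the keratin gene Krt18 was at 665 CPM in both groups, Krt8 was called lower (757 to 545 CPM; adjusted p = 0.0047 in edgeR) and Krt19 higher (157 to 208 CPM; adjusted p = 0.015 in edgeR). Epcam was at 3.99 CPM in both groups, Cdh1 at 0.181 and 0.0836 CPM, and Krt5 had no count. The 8 epithelial markers summed to 1533.3 to 1608.8 CPM in vector and 1326 to 1572.9 CPM in Bhlhe22 libraries. The 6 mesenchymal markers summed to 3073.1 to 3272.5 CPM in vector and 2739 to 2895.3 CPM in Bhlhe22 libraries. Of these, Vim (1658.3 to 1321.5 CPM, adjusted p = 0.0232 in edgeR) and Col1a2 (0.532 to 0.118 CPM) were called lower. Col1a2 was near the detection limit and passed the filter on low counts only through the vector libraries, where it is high, so its call is description. Sparc, at 1111.3 and 994.69 CPM in vector and Bhlhe22 cells, was not called. The cell type was not tested. Of the prostate markers, Pbsn and Hoxb13 had no count in any library and Fkbp5 was called lower (153 to 129 CPM; adjusted p = 0.037 in edgeR). Bhlhe22 replicate 1 stood apart from the other libraries of its group. Its root mean square log2 difference was 0.535 from replicate 2 and 0.563 from replicate 3, which differed from each other by 0.423, and vector libraries differed by 0.394 to 0.404. The difference followed gene length: against the other Bhlhe22 libraries, the median log2 difference of replicate 1 was 0.22 for genes of 57 to 2814 bases and -0.22 for genes of 9257 to 135057 bases. Its part in the results was checked by leaving the library out and by removing the trends on gene length and GC content. All 9 members that passed the filter were lower in Bhlhe22 replicate 1 than in the mean of replicates 2 and 3, by 0.04 (Stim1) to 0.68 (Itpr2) on the log2 scale. Fold changes are therefore given with and without this library.

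Promoter sequences are shown for the 2 members called higher in Bhlhe22 cells, Atp2a3 and Itpr2, and for the IP3 receptor gene with the highest level, Itpr3. Basic helix-loop-helix factors are known to bind E-boxes (CANNTG, which reads the same on both strands), and GC-rich promoters often carry GC boxes (GGGCGG on either strand). Below are the 250 bases before the RefSeq start of each gene (GRCm38.p6), 5′ to 3′ on the gene's strand, with every match to either motif in capitals. Matches to GGGCGG may overlap each other.
Atp2a3: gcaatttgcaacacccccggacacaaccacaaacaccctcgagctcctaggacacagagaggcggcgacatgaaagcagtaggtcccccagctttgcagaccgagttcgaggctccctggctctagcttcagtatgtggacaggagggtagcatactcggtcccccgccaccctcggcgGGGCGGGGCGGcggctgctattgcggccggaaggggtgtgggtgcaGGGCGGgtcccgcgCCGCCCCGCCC
Itpr2: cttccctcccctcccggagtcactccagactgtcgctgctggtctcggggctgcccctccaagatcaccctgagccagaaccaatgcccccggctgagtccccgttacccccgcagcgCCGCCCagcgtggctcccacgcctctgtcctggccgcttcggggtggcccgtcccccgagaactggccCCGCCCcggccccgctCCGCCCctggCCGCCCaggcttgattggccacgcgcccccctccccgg
Itpr3: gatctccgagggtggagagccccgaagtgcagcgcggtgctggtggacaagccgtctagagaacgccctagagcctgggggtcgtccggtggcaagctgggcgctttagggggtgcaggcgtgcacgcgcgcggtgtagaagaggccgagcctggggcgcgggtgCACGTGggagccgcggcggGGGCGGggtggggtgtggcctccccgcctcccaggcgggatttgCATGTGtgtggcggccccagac
The Atp2a3 stretch lies on the plus strand at chr11:72960919-72961168, the Itpr2 stretch on the minus strand at chr6:146502224-146502473 and the Itpr3 stretch on the plus strand at chr17:27057054-27057303. Neither called gene has a CANNTG in this window, and they have 5 (Atp2a3) and 4 (Itpr2) GGGCGG matches. Itpr3 has 1 GGGCGG match and 2 E-boxes, CACGTG starting 85 bases and CATGTG 22 bases before the start. A window was at hand for 8 members, of which 5 held a CANNTG (Atp2a1, Atp2b4, Itpr3, Stim1 and Orai1), against 66.2% of 32851 annotated starts. GGGCGG was in the window of 6 of the 8, against 32.7% of all starts. Member windows with GGGCGG were 66.8% to 80.8% GC, and the median over all starts was 52.4%. The share over all starts was not matched for GC, so no enrichment is read from it. CATATG, 1 form of the E-box, was in none of the members' windows and in 3.46% of all starts. The matches describe these windows and carry no measure of binding.

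With all 6 libraries, 2 of the 9 members that passed the filter on low counts were called higher (Atp2a3 and Itpr2), 0 lower and 7 were not called. The same edgeR fit (adjusted p under 0.05) called 19.6% of 14663 tested genes, 10.4% being higher and 9.28% lower. Their median log2 fold change was 0.06, and that of all tested genes 0.01. Since Atp2a3 chose the set, its call is no test, and nothing is read from these shares. CPM ranges of the groups did not overlap in Atp2a2, Atp2a3 and Itpr2, as in 40.8% of all tested genes. RNA of whole cultures was measured, so a gene's level cannot tell fewer expressing cells from less RNA per cell.

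**Figure D1:**
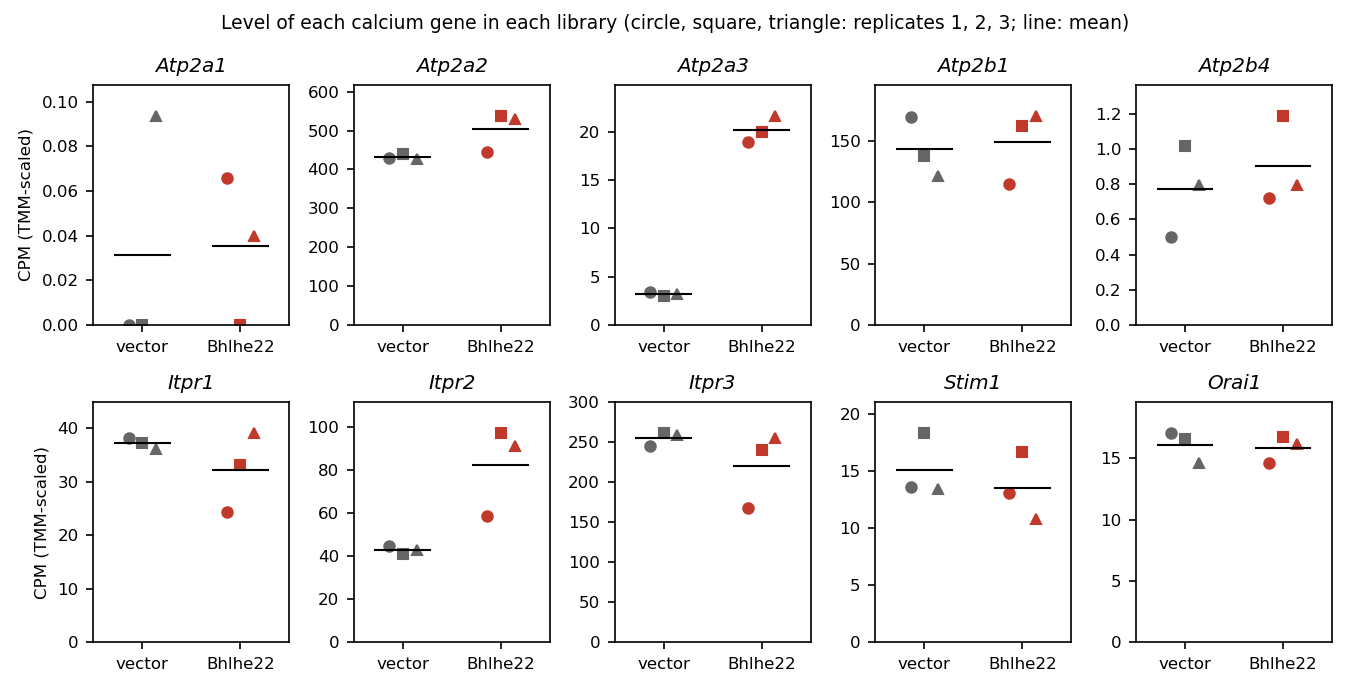
CPM (y axis, linear from 0, scaled per gene) of each of the 10 members in the 3 vector and 3 Bhlhe22 libraries; symbols mark the replicate number and lines the group mean. Atp2a3 runs from 3.06 to 3.44 CPM in vector and from 18.9 to 21.6 CPM in Bhlhe22 libraries. The circle of Bhlhe22 replicate 1 is the lowest of its group for every tested member except Stim1.

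Among the ER pumps, the minor SERCA3 gene was the one with the large difference. Atp2a3 (ENSMUSG00000020788) spans 72961169 to 72993044 on the plus strand of chromosome 11 in GRCm38, and its exons are shared with no other annotated gene. It had 62, 63 and 68 counts in vector replicates 1, 2 and 3, or 3.44, 3.06 and 3.18 CPM. In Bhlhe22 replicates 1, 2 and 3 it had 288, 386 and 543 counts, or 18.9, 19.9 and 21.6 CPM. All 3 Bhlhe22 values lay far above the highest vector value, with little spread within either group. Its fold was 6.25 (log2 fold change 2.64, SE 0.11), and 48 genes, or 0.327% of those tested, were called with at least as large an increase. This rise chose the set, so the rank is part of the description and no test. Without Bhlhe22 replicate 1 the log2 fold change was 2.68.

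Atp2a2 (chromosome 5, 122453513 to 122502225, minus strand) encodes SERCA2, the main pump here. It was at 430, 440 and 427 CPM in vector replicates 1, 2 and 3 and at 445, 538 and 530 CPM in the Bhlhe22 replicates. The Bhlhe22 values were all above the vector values, replicate 1 by a narrow margin. Its log2 fold change of 0.22 (SE 0.09) was not called with all libraries. Without Bhlhe22 replicate 1 it was 0.30 (SE 0.04) and was called. It was also called (0.23) once the trends on gene length and GC content were removed, a setting added after the data were seen. Atp2a1 (chromosome 7, 126445858 to 126463108, minus strand), the SERCA1 gene, had 0, 0 and 2 counts in vector and 1, 0 and 1 in Bhlhe22 replicates, too few for a fold. The gene Rabep2 on the opposite strand shares 21.94% of its exon bases.

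Levels of different genes were compared per length, in FPKM. Atp2a2 exceeded Atp2a3 by 105-fold ± 7.32 (SD, n = 3) in vector and by 19.6-fold ± 1.40 in Bhlhe22 cells. SERCA3 made up 1.01%, 0.878% and 0.941% of the summed SERCA FPKM in vector replicates 1, 2 and 3, and 5.14%, 4.51% and 4.95% in the Bhlhe22 replicates. Even at its higher level it was thus a small part of the SERCA transcripts. The sum itself was 46.6 ± 0.734 FPKM in vector and 55.8 ± 5.87 FPKM in Bhlhe22 cells (SD, n = 3), most of that difference being Atp2a2. These values depend on the lengths the authors used, which for Atp2a2 and Atp2a3 were 9424 and 7394 bases, against 6081 and 5281 exon bases in GENCODE M21.

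**Figure D2:**
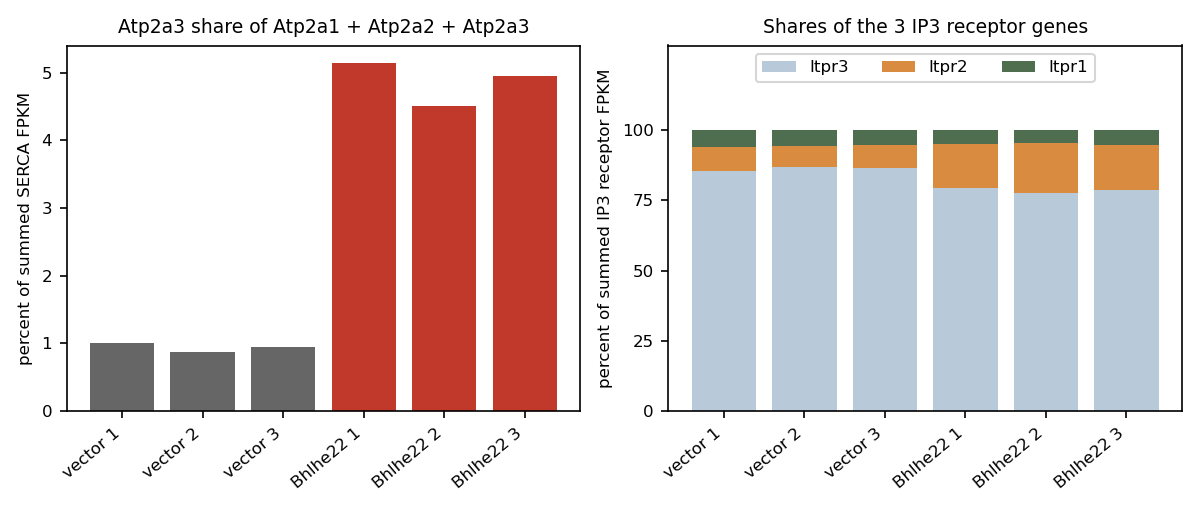
Left, Atp2a3 as a percent of the summed FPKM of the 3 SERCA genes in each library; right, the percent of summed IP3 receptor FPKM from Itpr3, Itpr2 and Itpr1, stacked. SERCA3 is at most 1.01% in vector and lies between 4.51% and 5.14% in Bhlhe22 libraries; Itpr2 lies between 7.65% and 8.81% in vector and between 15.6% and 17.7% in Bhlhe22 libraries.

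Among the release channels, Itpr2 was higher while the other receptors were not called. Itpr2 (ENSMUSG00000030287, chromosome 6, 146108299 to 146502223, minus strand) encodes the receptor with the highest sensitivity to IP3. It was at 44.9, 40.7 and 42.8 CPM in vector replicates 1, 2 and 3 and at 58.4, 96.9 and 91.1 CPM in the Bhlhe22 replicates. All 3 Bhlhe22 values lay above the vector range, with replicate 1 between it and the other replicates. The fold was 1.92 (log2 fold change 0.94, SE 0.18), which 2.42% of tested genes reached or passed among those called higher. Without Bhlhe22 replicate 1 the log2 fold change was 1.13 (SE 0.06). The call was lost without vector replicate 1 (0.98, SE 0.23), vector replicate 2 (0.91, SE 0.23) or vector replicate 3 (0.94, SE 0.23), at nearly the same size, and held without Bhlhe22 replicate 2 (0.81) or 3 (0.86).

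Itpr3 (chromosome 17, 27057304 to 27122223, plus strand), the most abundant receptor gene in these cells, was at 245, 261 and 259 CPM in vector replicates 1, 2 and 3 and at 168, 239 and 255 CPM in the Bhlhe22 replicates. Its log2 fold change of -0.21 (SE 0.15) became -0.05 (SE 0.05) without Bhlhe22 replicate 1. Itpr1 (chromosome 6, 108213096 to 108551109, plus strand), the main neuronal receptor gene, had 38.3, 37.3 and 36.1 CPM in vector and 24.4, 33.2 and 39.1 CPM in Bhlhe22 replicates. Its log2 fold change was -0.20 (SE 0.16) with all libraries and -0.05 (SE 0.09) without Bhlhe22 replicate 1. Replicates 2 and 3 of both genes lay near the vector values, replicate 1 lay below all other libraries, and the groups overlapped.

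As shares of the summed IP3 receptor FPKM, the Bhlhe22 libraries lay close together. Itpr2 held 8.81%, 7.65% and 8.07% in vector replicates 1, 2 and 3 and 15.6%, 17.7% and 15.9% in the Bhlhe22 replicates. Itpr3 went from 86.2% ± 0.829 to 78.5% ± 0.918 and Itpr1 from 5.63% ± 0.287 to 5.12% ± 0.301 (SD, n = 3). Itpr3 thus remained the main receptor transcript in both groups. The sum of the 3 was 31.9 ± 0.788 FPKM in vector cells and 22.3, 32.8 and 34.6 FPKM in Bhlhe22 replicates 1, 2 and 3.

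The plasma membrane pumps showed no call. Atp2b1 (chromosome 10, 98914406 to 99026143, plus strand), which encodes the widely expressed pump PMCA1, was at 170, 138 and 121 CPM in vector and 115, 162 and 170 CPM in Bhlhe22 replicates. The 2 ranges covered each other almost fully, with a log2 fold change of 0.06 (SE 0.18) and a 95% interval of the fold from 0.783 to 1.39. Without Bhlhe22 replicate 1 it was 0.21 (SE 0.15). Atp2b4 (chromosome 1, 133699457 to 133801041, minus strand), the PMCA4 gene, was near the detection limit, with 9, 21 and 17 counts in vector and 11, 23 and 20 counts in Bhlhe22 replicates and a 95% interval of the fold from 0.660 to 2.05. Its log2 fold change was 0.22 (SE 0.35), or 0.32 (SE 0.38) without Bhlhe22 replicate 1. Atp2b1 made up 99.3% of the summed PMCA FPKM in both groups, Atp2b2 having no count and Atp2b3 nearly none.

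The store-operated entry pair was also not called. Stim1 (chromosome 7, 102267806 to 102437319, plus strand), the ER calcium sensor gene, was at 13.6, 18.3 and 13.4 CPM in vector and 13.1, 16.6 and 10.8 CPM in Bhlhe22 replicates (log2 fold change -0.16, SE 0.19). Orai1 (chromosome 5, 123015074 to 123030456, plus strand), the channel pore gene, was at 17.1, 16.6 and 14.6 CPM in vector and 14.7, 16.7 and 16.2 CPM in Bhlhe22 replicates (-0.02, SE 0.11). The groups overlapped in both genes, and without Bhlhe22 replicate 1 the values were -0.15 (SE 0.23) and 0.03 (SE 0.10). The 95% intervals of the fold, 0.652 to 1.23 for Stim1 and 0.830 to 1.17 for Orai1, leave room for modest differences in either direction.

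**Figure D3:**
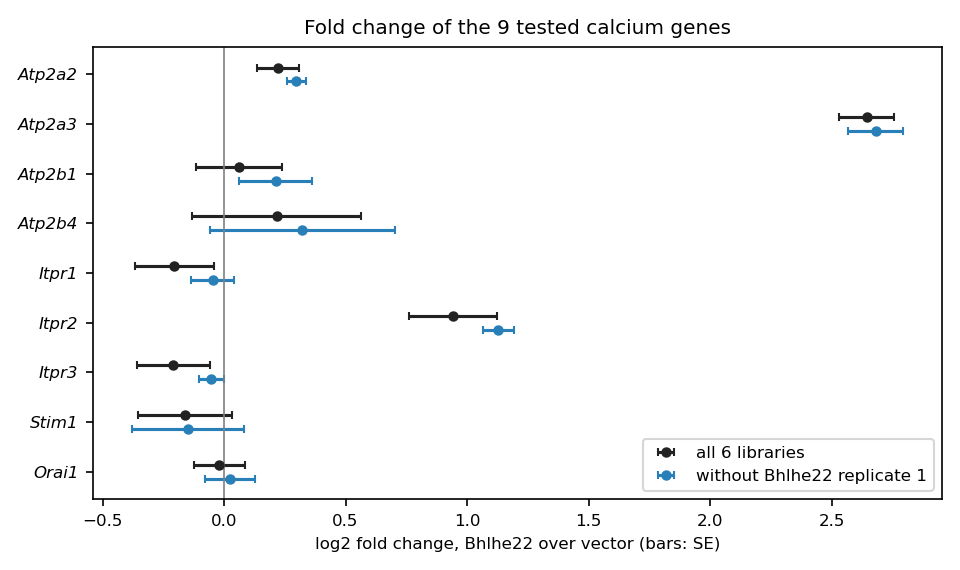
Log2 fold change of Bhlhe22 over vector (x axis; bars are SE) for the 9 tested members, with all 6 libraries (black) and without Bhlhe22 replicate 1 (blue). Atp2a3 stands at 2.64 and 2.68 and Itpr2 at 0.94 and 1.13, while Itpr1 and Itpr3 move to -0.05.

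Ordered by FPKM, vector cells had Atp2a2 first (46.2 ± 0.759), then Itpr3 (27.5 ± 0.940), Atp2b1 (7.35 ± 1.26), Orai1 (4.12 ± 0.334), Itpr2 (2.60 ± 0.124), Itpr1 (1.79 ± 0.0521), Stim1 (0.919 ± 0.170), Atp2a3 (0.439 ± 0.0257), Atp2b4 (0.0392 ± 0.0133) and Atp2a1 (SD, n = 3). No neighbours in this order overlapped. In Bhlhe22 cells Itpr2 (4.93 ± 1.27) ranked above Orai1 (4.0 ± 0.291), and Atp2a3 (2.70 ± 0.204) above Itpr1 (1.53 ± 0.363) and Stim1 (0.810 ± 0.173). There the ranges of Atp2b1 and Itpr2, and of Itpr2 and Orai1, overlapped. Within each library Atp2b1 (5.78, 8.21 and 8.68 FPKM in Bhlhe22 replicates 1, 2 and 3) was above Itpr2 (3.48, 5.81 and 5.50). Itpr2 was below Orai1 (3.67, 4.22 and 4.11) in replicate 1 and above it in replicates 2 and 3, so the order of that pair is not resolved.

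The tested genes whose log2 CPM profile over the 6 libraries was closest to that of Atp2a3 were Napb, Stard5, Elmo1, Dgat2 and Stbd1, with root mean square differences of 0.0796 to 0.151 after centring. They encode a membrane fusion adaptor (Napb), a lipid transfer protein (Stard5), a Rac activator subunit (Elmo1), a triglyceride synthesis enzyme (Dgat2) and a glycogen-binding protein (Stbd1). All 5 were called higher, by 5.56-fold to 6.68-fold, and likeness here mostly reflects a similar fold. Stard5, for example, went from 18.6 ± 1.29 to 113 ± 3.45 CPM (SD, n = 3).

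Because SERCA3 is known from other cell types and SERCA1 from skeletal muscle, markers of these were read in the same libraries. Of 8 blood cell and platelet markers, Cd3e, Itgam and Lyz2 had no count, Ptprc was at most at 0.0657 CPM on group means, and the summed level was 42.9 to 46.7 CPM in vector and 49.9 to 59.1 CPM in Bhlhe22 libraries, mostly Cd68. The platelet integrin gene Itga2b was called higher (log2 fold change 0.68, edgeR adjusted p = 0.026). The 5 endothelial markers summed to 4.77 to 5.63 CPM in vector and 3.48 to 4.80 CPM in Bhlhe22 libraries. The 10 tuft cell markers summed to 24.2 to 26.2 CPM in vector and 54.4 to 59.5 CPM in Bhlhe22 libraries. Of the 3 tested, Avil (1.40 to 21.9 CPM) and Sh2d6 (0.909 to 19.0 CPM) were called higher and Dclk1 lower (22.6 to 15.1 CPM), Gnat3 and Il25 had no count, and the defining tuft factor Pou2f3 was at 0.0312 and 0.0344 CPM in vector and Bhlhe22 cells. The 8 skeletal muscle markers summed to 6.60 to 9.59 CPM in vector and 4.98 to 8.41 CPM in Bhlhe22 libraries, with Myod1 and Myh4 at 0. What part, if any, blood, endothelial or tuft cells have in the Atp2a3 level was not tested.

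Beyond the members, 136 other genes of calcium handling were listed by role, and 103 passed the filter. Of these 19 were higher, 10 lower and 74 not called, or 28.2% called, with a median log2 fold change of 0.09. Over all tested genes 19.6% were called, 10.4% higher and 9.28% lower, with a median of 0.01, and the counts of every list are to be read against these shares. Fewer were called when a vector library was left out: 11 higher and 6 lower without replicate 1, 12 and 5 without replicate 2, and 13 and 5 without replicate 3. More were called, 24 and 16, when Bhlhe22 replicate 1 was. Calls over all genes moved alongside, from 2881 to 1348, 1458 and 1480 without vector replicates 1, 2 and 3 and to 4682 without Bhlhe22 replicate 1. A gene is said to have held where it was called whichever 1 library was left out.

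Genes acting on IP3 receptors and on IP3 moved in both directions. Of 15 tested, 4 were higher and 2 lower (median log2 fold change 0.26). Erlin1, part of an ER membrane complex that marks activated IP3 receptors for degradation, rose from 50.3 ± 2.90 to 181 ± 6.26 CPM, by 1.84 on the log2 scale (SE 0.07; adjusted p = 4.7e-05 in edgeR) and held. Its partner Erlin2 was at 63.5 and 64.4 CPM (0.02). Inpp5a, a phosphatase that breaks down IP3, rose from 50.4 ± 2.57 to 73.9 ± 4.13 CPM (0.55) and held. Itpripl1 fell from 25.1 ± 0.780 to 14.3 ± 1.07 CPM (-0.81) and held. Ahcyl1, whose product IRBIT competes with IP3 at the receptor, rose from 240 to 312 CPM (0.38). Its call was lost without vector replicate 1 (0.33), vector replicate 2 (0.39) or Bhlhe22 replicate 2 (0.35). The other called genes, outside the naming rule and named after seeing their values, were Cabp1 (1.59) and Mrvi1 (-1.56). Cabp1 was not called without any 1 vector replicate (1.44 without replicate 1, 1.61 without 2, 1.72 without 3), nor Mrvi1 without vector replicate 1 (-1.29) or Bhlhe22 replicate 2 (-1.47). Called in this list were 2 higher and 1 lower when vector replicate 1 was left out, and 6 and 2 when Bhlhe22 replicate 1 was.

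Phospholipases C, which make IP3, had 3 of 8 tested genes higher and 2 lower, or 62.5% called against 19.6% of all tested genes (median log2 fold change 0.30). Plcb1 rose from 3.54 ± 0.300 to 8.80 ± 2.13 CPM, by 1.32 on the log2 scale (SE 0.20; adjusted p = 0.0053 in edgeR) and held. Plch1 rose from 0.117 ± 0.0265 to 1.3 ± 0.456 CPM (3.44, SE 0.45) and held, at a level of few counts. It had 2, 3 and 2 counts in vector and 12, 32 and 37 in Bhlhe22 replicates. Plch1 thus passed the filter only through the group where it is high, so its call is description and the 62.5% includes it. On log2 of FPKM plus 1 it was not called (0.07 on that scale, limma adjusted p = 0.168). The more abundant Plcb3 fell from 89.3 ± 4.18 to 68.5 ± 2.97 CPM (-0.38) and Plcg2 from 50.7 ± 3.14 to 36.9 ± 2.84 CPM (-0.46). Both lost their call without vector replicate 2 (Plcb3 -0.38, Plcg2 -0.45) or vector replicate 3 (Plcb3 -0.35, Plcg2 -0.41). Plcd1 (0.52, named after seeing its value) lost its call without vector replicate 1 (0.46), vector replicate 2 (0.47) or Bhlhe22 replicate 2 (0.50). Leaving out vector replicate 2 gave 2 higher and 0 lower in this list, and leaving out vector replicate 3 gave 3 and 0.

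Other genes of store-operated entry had 4 of 9 tested higher and 0 lower (median log2 fold change 0.14). Esyt1, an ER tether to the plasma membrane, rose from 132 ± 4.25 to 250 ± 7.40 CPM, by 0.92 on the log2 scale (SE 0.06; adjusted p = 2.4e-04 in edgeR) and held, as did the cation channel gene Trpc1, from 20.2 ± 2.38 to 38.3 ± 7.36 CPM (0.93). Saraf, which turns store-operated entry off, rose from 102 to 148 CPM (0.53). It lost its call without any 1 vector replicate (0.56 without replicate 1, 0.48 without 2, 0.56 without 3) or Bhlhe22 replicate 2 (0.48). Orai2 (0.35) kept its call when Bhlhe22 replicate 1 was left out (0.29) and lost it when any other library was (0.28 to 0.42). The paralogs Stim2 (0.14) and Orai3 (0.10) were not called. In this list 2 genes stayed called when Bhlhe22 replicate 2 or 1 of the vector libraries was removed.

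**Figure D4:**
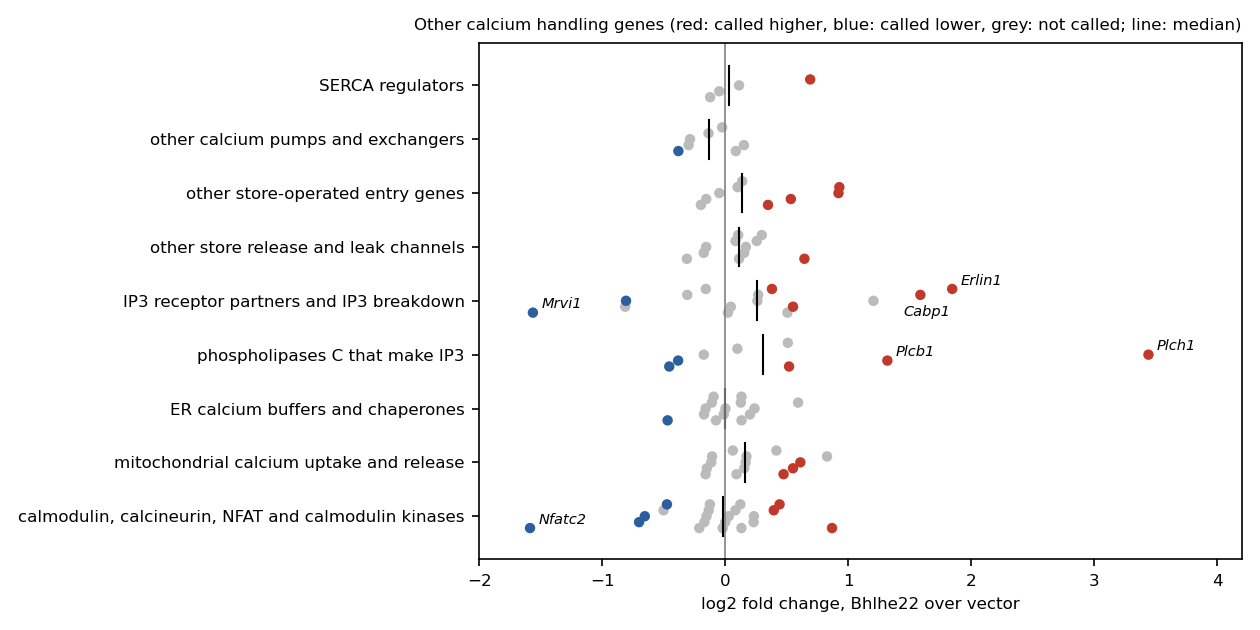
Log2 fold change of Bhlhe22 over vector (x axis) of each tested gene in the 9 lists of other calcium handling genes; red points were called higher, blue lower, grey not called, and black lines mark list medians. The largest values among called genes are Plch1 at 3.44 and Erlin1 at 1.84 on the right and Nfatc2 at -1.59 on the left. Plch1 passed the filter only through the Bhlhe22 libraries.

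The remaining store channels had 1 of 11 tested genes called, Grina, a transmembrane BAX inhibitor motif protein, which rose from 258 ± 9.56 to 403 ± 21.9 CPM, by 0.64 on the log2 scale (SE 0.07; adjusted p = 0.0013 in edgeR) and held. Without Bhlhe22 replicate 1, 2 of these genes were higher and 1 lower. The ryanodine receptor genes, the other great family of ER release channels, were close to silent, with 0 to 12 counts per library. Ryr2 had 0, 0 and 0 counts in vector and 2, 4 and 12 in Bhlhe22 replicates. Ryr1 went the other way, with 2, 4 and 3 against 0, 0 and 1. Both were under the filter. Without a filter, the list of store channels had 2 genes called higher and 0 lower. Of the SERCA regulators, the small inhibitory peptides Pln and Sln and the activator Strit1 had no count. Hax1, whose product binds SERCA2, rose from 58.9 ± 3.0 to 95 ± 13.1 CPM (0.69) and held, while Vmp1 (-0.05), Tmx1 (-0.12) and S100a1 (0.11) were not called.

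In the mitochondrial list 3 of 14 genes were higher and 0 lower (median log2 fold change 0.16). Mcu, the pore of the mitochondrial calcium uniporter, rose from 40.1 ± 1.32 to 58.7 ± 0.885 CPM, by 0.55 on the log2 scale (SE 0.07; adjusted p = 0.0027 in edgeR), and the outer membrane channel gene Vdac3 from 111 ± 2.94 to 169 ± 15.6 CPM (0.61). Both held. Mcub (0.47), a subunit that lowers uniporter flux, lost its call without vector replicate 1 (0.45), 2 (0.48) or 3 (0.50). The list then had 2 higher genes in each case. Among other pumps and exchangers 1 of 7 was called, the mitochondrial sodium-calcium exchanger gene Slc8b1 (-0.38). It kept its call when Bhlhe22 replicate 1 was left out (-0.41) and lost it when any other library was (-0.43 to -0.31).

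ER calcium buffers and chaperones had 1 of 14 tested genes called, Rcn2, which fell from 122 ± 1.00 to 88.1 ± 2.40 CPM, a log2 change of -0.47 (SE 0.06; adjusted p = 0.0027 in edgeR) and held. The main ER buffer Calr was at 706 ± 5.57 and 633 ± 60.9 CPM in vector and Bhlhe22 cells (-0.16) and was not called. Without Bhlhe22 replicate 1 this list had 4 lower genes. In the calmodulin, calcineurin and NFAT list 3 of 21 were higher and 4 lower (median log2 fold change -0.02). Camk1, a calmodulin-dependent kinase, rose from 37.0 ± 0.743 to 67.6 ± 13.9 CPM (0.87), Calm3 fell from 233 ± 7.85 to 168 ± 9.10 CPM (-0.47), and Nfatc2, a calcineurin-regulated transcription factor, fell from 3.94 ± 0.554 to 1.32 ± 0.283 CPM (-1.59). All 3 held. The calcineurin subunit genes Ppp3cc (0.39) and Ppp3ca (0.44, named after seeing its value) were called higher. Ppp3cc was not called without vector replicate 1 (0.35), vector replicate 3 (0.39) or Bhlhe22 replicate 2 (0.39), and Ppp3ca kept its call only when the library left out was Bhlhe22 replicate 1 (0.53; 0.37 to 0.46 otherwise). The kinase gene Camk2b (-0.65, likewise named later) lost its call when any 1 library was left out (-0.76 to -0.48). Camkk1, a kinase gene near Atp2a3, was the other called gene of this list and was lower (-0.70). Called in the list were 1 higher and 2 lower when vector replicate 1 or 3 was left out, 2 and 2 for vector replicate 2 or Bhlhe22 replicate 3, 1 and 3 for Bhlhe22 replicate 2, and 4 and 5 for Bhlhe22 replicate 1. Camkk1 lost its call when any vector replicate or Bhlhe22 replicate 3 was left out (-0.74 to -0.62).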

How the data were processed

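Total RNA of 6 RM-1 samples was sequenced. Raw gene counts were deposited by the authors. CASAVA 1.8, HISAT2 2.1.0, StringTie 1.3.4b, edgeR and GRCm38 are named, without roles, per the submitters' processing notes. Annotation, filters and strand setting: not given in the sources used here. The FPKM values deposited by the authors follow from these counts, the library totals and 1 fixed length for each gene (10435 of 10435 genes with 100 counts in every sample gave 1 length within 0.00089%). GENCODE M21 holds 55141 of the identifiers, 99.4% at the same coordinates. Promoters are from RefSeq.

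One edgeR 4.0.16 fit (R 4.3.3; TMM, filterByExpr with minimum count 10 and total 15, robust quasi-likelihood, Benjamini-Hochberg at 0.05, no covariate) covered all genes. Where a symbol had several identifiers, the one with most counts was used. CPM uses TMM-scaled library sizes. Intervals cover the spread between libraries. Alternatives were DESeq2 1.42.0, limma 3.58.1 (voom, and log2 of FPKM with pseudocount 1), other scalings and filters, a non-robust fit, a replicate block and leaving out each library; a length and GC correction (splines, 5 degrees of freedom) was added later. Named were all members, Bhlhe22, up to 4 called genes per list by adjusted p, the 5 genes most like Atp2a3 (log2 CPM, prior count 2), and genes within 50 kb of Atp2a3. Members and lists were chosen with earlier results of these data known.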

Additional observations from a re-analysis of the deposited data

How the results depend on the processing

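Of the 16 alternatives, the 10 that kept all 6 libraries gave 2 or 3 called members, 25 to 33 other calcium handling genes and 2079 to 3590 genes in all, against 2, 29 and 2881. Leaving out 1 library gave 1 to 3 members, 17 to 40 other calcium handling genes and 1348 to 4682 genes. The highest of each came without Bhlhe22 replicate 1. The log2 fold change of Atp2a3, the value that chose the set, ran from 1.36 (log2 of FPKM plus 1, which understates low genes) to 2.69. Under the replicate block 2 members, 25 other calcium handling genes and 2079 genes were called. Deviations of same-numbered libraries from their group means correlated at 0.0156 to 0.0293 over genes. With 3 libraries per group, this cannot settle whether same-numbered samples shared a culture or day. Of other genes named, calls at the edge were lost under some settings that kept all libraries: Orai2 and Camk2b with limma on FPKM (0.25 and -0.16), Orai2 with RLE factors (0.34) or library size alone (0.32), Camk2b with limma-voom (-0.63), Orai2, Slc8b1 and Camk2b without a filter (0.35, -0.37 and -0.65), Mrvi1 with limma on FPKM (-0.16), and Orai2, Slc8b1, Plcd1, Mcub, Ppp3cc and Camk2b with the block (0.35, -0.38, 0.52, 0.47, 0.40 and -0.65). Direction changed in 4 uncalled members when 1 library was left out: Atp2b1 ranged from -0.0431 to 0.21, Atp2b4 from -0.0221 to 0.47, Stim1 from -0.34 to 0.0016 and Orai1 from -0.0861 to 0.0256. In CPM, not per length, SERCA3 was 0.741% of the SERCA sum in vector and 3.86% in Bhlhe22 cells. Depth limits Atp2a1 and Atp2b4, with 2 counts and 23 counts at most in a library.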

Other observations

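Around Atp2a3 on chromosome 11, only Camkk1 and Zzef1 passed the filter within 50 kb. Neither was called higher, as 10.4% of all tested genes were, so little can be read from this. P2rx1, an ATP-gated channel gene that begins 6.1 kb past its end, was at 0.128 ± 0.149 CPM in vector and 0.264 ± 0.255 CPM in Bhlhe22 cells (SD, n = 3), under the filter. Camkk1, which encodes a kinase of calmodulin-dependent kinases and lies 26.0 kb past its end, fell from 6.47 ± 0.595 to 3.97 ± 0.577 CPM, a log2 change of -0.70 (SE 0.16; adjusted p = 0.021 in edgeR). Its call was lost without vector replicate 1 (-0.74), vector replicate 2 (-0.74), vector replicate 3 (-0.62) or Bhlhe22 replicate 3 (-0.72). Zzef1, which ends 34.0 kb before Atp2a3, was at 97.9 ± 5.58 and 77.9 ± 18.9 CPM (-0.33, SE 0.17) and was not called. The noncoding genes 4732414G09Rik and Gm44467 had few or no counts.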
